A study of Mus musculus with 9 samples.

Results

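Of 18 mouse S100 genes considered, 10 besides S100a8 and S100a9, the calprotectin subunits, are described here: S100a1, S100a4, S100a6, S100a10, S100a11, S100a13, S100a14, S100a16, S100b and S100g. They were taken by name, 1 row each, from a table of 21498 gene symbols, and all 10 were among the 15278 genes that passed the filter on low values. The data were bulk RNA-seq of colorectal tissue from male ICR mice, an outbred strain, with 3 mice in each of 3 groups, all aged 5 weeks at the start and sampled at the end of week 18. Control mice received neither azoxymethane (AOM, a colon carcinogen), nor dextran sulfate sodium (DSS, which injures the colon epithelium), nor antibody. AOM/DSS + IgG Ab mice (IgG Ab) were injected with 10 mg/kg AOM and given DSS water in 3 cycles (the first of 7 days at 2%, the later ones of 5 days at 1.5%) together with 1.5 mg/kg of a negative control IgG antibody, and AOM/DSS + anti-S100a9 Ab mice (anti-S100a9 Ab) had the same AOM and DSS with 1.5 mg/kg of a neutralizing antibody against S100a9 instead. No group received anti-S100a9 Ab without AOM and DSS, and none received AOM and DSS without antibody. The tissue of the antibody-treated mice is labelled colorectal adenocarcinoma, whereas the study's text calls the anti-S100a9 Ab tissue colon mucosa.

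S100 proteins are small calcium sensors with a pair of EF-hand motifs that work mostly as dimers. Calcium binding opens a hydrophobic surface through which they bind partners such as annexins, myosins and ion channels, and several members are also released from cells and act on receptors such as Ager (RAGE). Most of the genes lie in 1 cluster beside the epidermal differentiation genes, and in the colon different members mark epithelium, fibroblasts, immune cells and enteric glia, while S100g carries calcium through absorptive cells.

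Expression is given in FPKM, which divides the fragments of a gene by its transcript length and by the depth of the sample, so that levels can be compared between genes. The unit was read from the values, and since no counts were used the depth behind a value is unknown. Some abundant genes are underestimated in these tables: the housekeeping genes Ppia and Gapdh never exceeded 0.974 and 0.755 FPKM. A gene at 0 is therefore only said to be listed at 0. Comparisons are on log2(FPKM + 0.1), which understates the change of low genes, with limma fitted to all 9 samples, and a gene is said to have changed only at a Benjamini-Hochberg adjusted p under 0.05 over all 15278 genes. The 3 IgG Ab samples are used in both comparisons with that group, so the results of these comparisons are not independent. All 3 groups held epithelial markers (Epcam, Cdh1, Krt8, Krt18, Krt19, Krt20 and Vil1 summed to between 3686 and 5394 FPKM per sample), and all held smooth muscle markers (518 to 4074 FPKM), so the tissue labelled mucosa was not epithelium alone. In bulk tissue, a lower level can come from fewer cells of a type or from less RNA per cell, and these cannot be told apart.

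Most of the genes lie close together. On the GRCm38 build with GENCODE M21 annotation, 8 of the 10 genes are on chromosome 3. S100a1 (chr3:90511034-90514392, minus strand) and S100a13 (chr3:90514435-90524581, plus strand) are head to head with starts 43 bases apart, and S100a14, S100a16, S100a4 and S100a6 follow on the plus strand up to position 90624181. S100a11 (chr3:93520488-93526287) starts 2824767 bases beyond the end of S100a9, and S100a10 (chr3:93555080-93564643) lies 28793 bases after it with no other protein-coding gene between them. S100b (chr10:76253853-76261159) and S100g (chrX:162961992-162964599) stand apart and overlap Dip2a and Ctps2 on the opposite strand, while S100a4 overlaps the gene model Gm42674 on its own strand. How the authors' counting used strand is not given in the sources used here, so reads of these 3 overlapping pairs cannot be told apart. S100a11 also has a processed pseudogene, S100a11-ps, on chromosome 12 from 73961142 to 73961447, to which some of its reads could have been assigned.

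Promoter windows of 250 bases upstream of the RefSeq start (GRCm38.p6) were read for 8 of the 10 members, all but S100a10 and S100a14, in 9 windows. The windows of S100a11 and S100a6 are shown because these are the genes that changed, and 1 of the 2 windows of S100a16 because it is the only other member window with a match to AP-1. Capitals mark matches, on either strand, to AP-1 (TGANTCA), STAT (TTCNNNGAA), TEAD (GGAATG), the GC box (GGGCGG), the CCAAT box (CCAAT) or the TATA box (TATAAA).
S100a11 (chr3:93520246-93520495, + strand): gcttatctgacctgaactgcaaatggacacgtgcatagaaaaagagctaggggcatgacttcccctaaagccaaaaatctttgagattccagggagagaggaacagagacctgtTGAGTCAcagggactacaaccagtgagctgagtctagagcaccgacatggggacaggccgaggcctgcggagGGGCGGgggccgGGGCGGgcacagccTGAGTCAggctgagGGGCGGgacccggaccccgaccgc
S100a6 (chr3:90612644-90612893, + strand): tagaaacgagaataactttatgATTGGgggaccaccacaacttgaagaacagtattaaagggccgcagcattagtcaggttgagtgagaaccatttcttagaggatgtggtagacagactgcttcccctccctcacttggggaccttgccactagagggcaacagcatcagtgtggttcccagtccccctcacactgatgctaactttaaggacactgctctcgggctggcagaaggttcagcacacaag
S100a16 (chr3:90540896-90541145, + strand): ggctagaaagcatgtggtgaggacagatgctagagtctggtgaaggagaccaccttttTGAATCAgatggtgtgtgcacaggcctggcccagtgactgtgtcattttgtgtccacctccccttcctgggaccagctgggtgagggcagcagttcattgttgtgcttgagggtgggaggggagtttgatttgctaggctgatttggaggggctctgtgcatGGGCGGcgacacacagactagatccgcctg

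The S100a11 window held 2 matches to TGANTCA and 3 to GGGCGG. Of 32851 promoter windows of the same length, 6.75% held TGANTCA at least once and 0.338% held it 2 or more times. Among the members with a window, TGANTCA and GGGCGG (32.7% of all windows) were each found only in those of S100a11 and S100a16. The S100a6 window had neither, and its capitals are a match to CCAAT on the opposite strand (33.8% of all windows). TATAAA (12.4% of all windows) was found only in the window of S100a4 and CCAAT only in those of S100a6 and S100b, and no member's window matched the STAT (7.02%) or TEAD (12.6%) letters. These are matches of letters, not evidence of binding.

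Single values of the 10 genes ran from 0.254 FPKM (S100b) to 1346 FPKM (S100a6). S100a6 had the highest level of the family in 9 of 9 samples and S100b the lowest in 9 of 9. By the mean over all 9 samples, S100a6 (689 FPKM) was followed by S100a10 (302), S100a14 (194), S100a16 (124), S100a11 (113), S100a13 (65.7), S100a1 (62.7), S100a4 (35.1), S100g (13.9) and S100b (1.06). The order S100a6, S100a10, S100a14, S100a16 was the same in 9 of 9 samples, whereas S100a13 exceeded S100a1 in 6 of 9, so this pair is not separated by the spread between samples. S100a11 moved furthest in this order: it ranked 7 in each Control sample, 4, 4 and 2 in the IgG Ab samples and 8, 6 and 6 in the anti-S100a9 Ab samples.

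**Figure D1:**
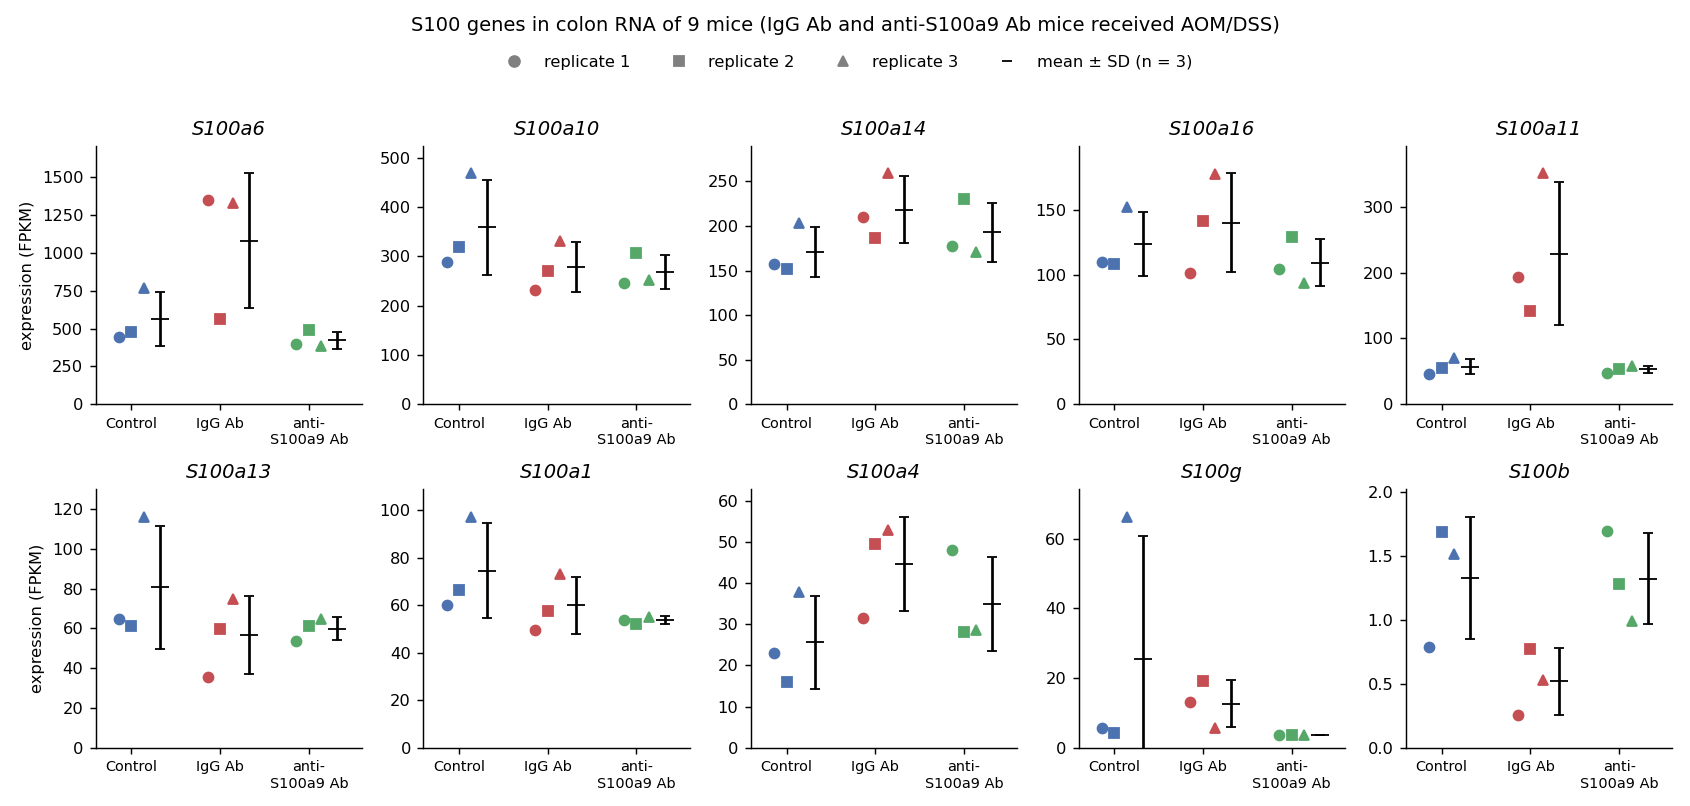
Expression (FPKM, y axis, each panel with its own scale from 0) of 10 S100 genes in the Control, IgG Ab and anti-S100a9 Ab samples, with 1 symbol per mouse and the mean ± SD (n = 3) as a black bar. The 3 IgG Ab samples of S100a11 lie at 142 FPKM and above and the other 6 samples at 69.5 FPKM and below, and for S100g Control replicate 3 (66.3 FPKM) stands alone, with the lower end of its group's bar cut at 0.

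S100a11 was the only member that passed the test between IgG Ab and Control. S100a11 is an annexin-binding member that is abundant in many epithelia. Its level was 46.5, 55.7 and 69.5 FPKM in the Control samples, 194, 142 and 351 FPKM in the IgG Ab samples and 47.3, 53.3 and 58.4 FPKM in the anti-S100a9 Ab samples. Each IgG Ab sample lay above the other 6 samples, and the ranges of Control and anti-S100a9 Ab overlapped. S100a11 rose 3.77-fold in IgG Ab against Control (95% CI 2.33 to 6.08, log2 fold change 1.91 ± 0.30 SE, limma adjusted p = 0.0072). This made 1 of the 10 members higher and 0 lower, where 8.18% of all genes were higher and 3.01% lower. In the comparison of the 2 antibodies S100a11 fell by 2.01 on the log2 scale (SE 0.30, 95% CI -2.70 to -1.32, adjusted p = 0.0070), to a level 4.03-fold below that of IgG Ab. Against Control, the level under anti-S100a9 Ab differed by a log2 fold change of -0.10 (95% CI -0.79 to 0.59, adjusted p = 0.89), whose sign turned under some scalings. Both calls on S100a11 held in 21 of 21 alternative settings, with adjusted p from 0.0030 to 0.034 and from 0.0035 to 0.035.

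S100a6 was the other member that passed the test. S100a6, or calcyclin, is an annexin and CacyBP partner of proliferating epithelial and stromal cells. It was measured at 447, 478 and 770 FPKM in Control, at 1346, 564 and 1326 FPKM in IgG Ab, and at 396, 489 and 387 FPKM in anti-S100a9 Ab. IgG Ab replicate 2 stood below Control replicate 3 and well below the 2 other samples of its group, while each of the 3 exceeded the anti-S100a9 Ab samples. S100a6 was lower with anti-S100a9 Ab than with IgG Ab by a log2 fold change of -1.25 (SE 0.37, 95% CI -2.10 to -0.40, limma adjusted p = 0.045). With S100a11 this made 2 of the 10 members lower and 0 higher, where 14.4% of all genes were lower and 6.72% higher. The call on S100a6 was near the threshold and held in 8 of 21 alternative settings, with adjusted p from 0.010 to 0.12. It was lost under each of 3 other scalings, without the filter on low values, in a fit of the 2 antibody groups alone, with the trend over transcript length removed and when any of 7 samples was left out, and held without IgG Ab replicate 2 (adjusted p = 0.010) or Control replicate 3 (0.034). Between IgG Ab and Control the log2 fold change was 0.87 (SE 0.37, adjusted p = 0.16), and it passed only without IgG Ab replicate 2 (1.29, adjusted p = 0.028).

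The neighbour of S100a11, S100a10, showed neither pattern. S100a10, or p11, forms a tetramer with annexin A2 at the plasma membrane. Its levels were 288, 319 and 468 FPKM in Control, 232, 271 and 332 FPKM in IgG Ab, and 245, 307 and 252 FPKM in anti-S100a9 Ab. The 3 groups overlapped. The log2 fold changes were -0.35 (95% CI -0.87 to 0.17) for IgG Ab against Control and -0.04 (-0.57 to 0.48) between the antibodies, the latter turning to between 0.07 and 0.20 under 3 other scalings or with the length trend removed (adjusted p = 0.34 and 0.91, limma). Its partner Anxa2 was measured at 269, 302 and 387 FPKM in Control, 608, 481 and 720 FPKM in IgG Ab, and 301, 357 and 285 FPKM in anti-S100a9 Ab. Each IgG Ab sample of Anxa2 was above the other 6 samples, with log2 fold changes of 0.91 (SE 0.22, adjusted p = 0.034) against Control and -0.93 (SE 0.22, adjusted p = 0.024) for anti-S100a9 Ab against IgG Ab. Ahnak, a large scaffold that binds the complex of S100a10 and annexin A2, went the other way, with log2 fold changes of -0.67 (adjusted p = 0.048) and 1.02 (adjusted p = 0.011).

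Ratios within a sample do not depend on the scaling between samples. The ratio of S100a11 to S100a10 was 0.161, 0.175 and 0.148 in Control, 0.835, 0.525 and 1.06 in IgG Ab, and 0.193, 0.173 and 0.231 in anti-S100a9 Ab. S100a6 stood at 1.55, 1.50 and 1.64 times S100a10 in Control, at 5.80, 2.08 and 4.0 times in IgG Ab, and at 1.61, 1.59 and 1.53 times in anti-S100a9 Ab. On this ratio IgG Ab replicate 2 no longer overlapped Control, although it remained the lowest of its group. The ratio of Anxa2 to S100a10 was 0.902 ± 0.066 (SD, n = 3) in Control, 2.19 ± 0.42 in IgG Ab and 1.17 ± 0.051 in anti-S100a9 Ab. S100a6 made up 37.1% to 38.9% of the summed FPKM of the 10 genes in Control, 60.8%, 37.8% and 50.0% in IgG Ab, and 34.7% to 36.1% in anti-S100a9 Ab. The ratios were chosen after the values were seen and are given as a description.

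**Figure D2:**
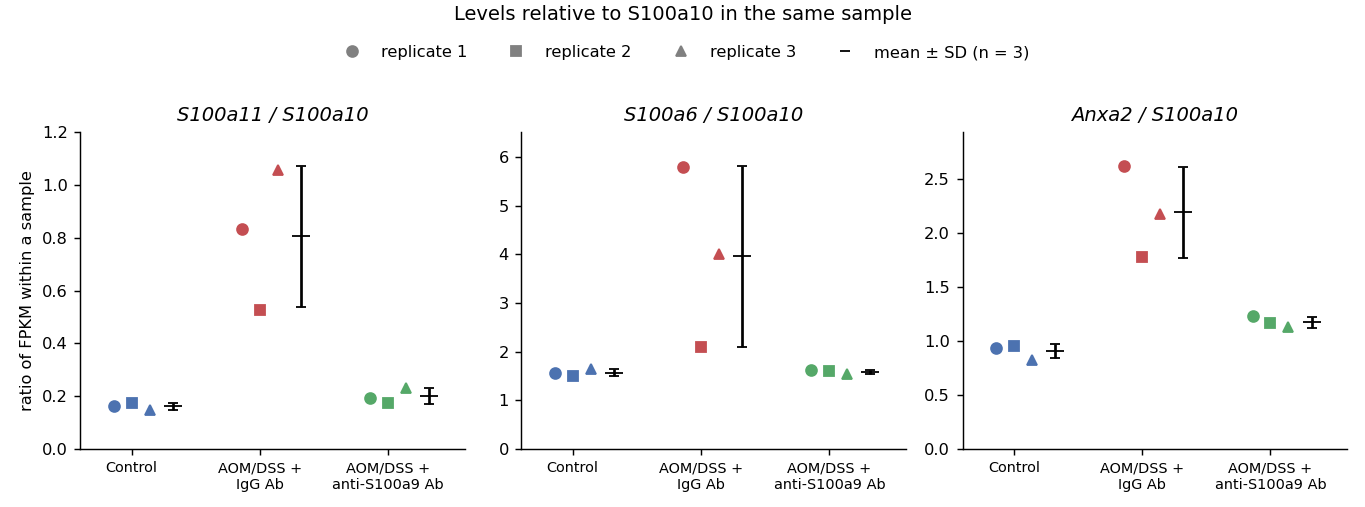
Ratio of the FPKM of S100a11, S100a6 and Anxa2 to that of S100a10 in the same sample (y axis from 0, no unit), by group, with 1 symbol per mouse and the mean ± SD (n = 3) as a black bar. All 3 IgG Ab samples lie above the other 6 samples in each panel, with S100a11 ratios of 0.525 to 1.06 against 0.148 to 0.231.

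S100a4, which binds non-muscle myosin and marks fibroblasts and some leukocytes, did not pass the test. Its levels were 23.1, 15.9 and 38.0 FPKM in Control, 31.5, 49.5 and 53.0 FPKM in IgG Ab, and 48.1, 28.2 and 28.5 FPKM in anti-S100a9 Ab. Control replicate 3 overlapped the IgG Ab range. The log2 fold change against Control was 0.85 (SE 0.35, adjusted p = 0.14, limma), and between the antibodies it was -0.36 (SE 0.35, adjusted p = 0.46). With samples weighted by their estimated quality the first reached 1.45 (adjusted p = 0.019), and that of anti-S100a9 Ab against Control went from 0.49 (adjusted p = 0.49) to 1.07 (adjusted p = 0.030). The weights were 0.85, 5.07 and 0.30 for Control replicates 1 to 3, so the weighted Control level leaned on replicate 2, the lowest at 15.9 FPKM.

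By group, some markers of other cell types moved beside S100a11 and S100a6. Of 7 fibroblast markers, 4 (Col1a1, Col1a2, Col3a1 and Pdgfra) were higher in IgG Ab than in Control, where 8.18% of all genes were. With anti-S100a9 Ab 4 (Col1a1, Col1a2, Col3a1 and Vim) were lower than with IgG Ab, where 14.4% of all genes were. The others, Dcn (log2 fold changes 0.31 and 0.32) and Lum (-0.26 and 0.77), did not pass and were not lower between the antibodies. The summed level of the 7 markers was 634 to 671 FPKM in Control, 963 to 2319 FPKM in IgG Ab and 762 to 919 FPKM in anti-S100a9 Ab. Within IgG Ab the collagens did not follow S100a11 and S100a6. Col1a1 was at 68.6, 489 and 358 FPKM in IgG Ab replicates 1 to 3, where S100a11 was at 194, 142 and 351 FPKM. S100a6 was at 1346, 564 and 1326 FPKM there, and Vim, at 347, 226 and 426 FPKM, was lowest in the same replicate as both. This was not particular to Vim. Pdgfra, the epithelial marker Krt18 and the squamous markers Krt4, Krt6a, Krt13 and Krt14 were lowest in that replicate too. The 3 collagens, Dcn, Lum, the squamous marker Krt5 and the neutrophil markers Csf3r, Cxcr2 and Retnlg were lowest in replicate 1. With 3 samples such orders are only a description. Of 6 squamous epithelium markers 5 were tested, and Krt4, Krt6a, Krt13 and Krt14 were higher and then lower in the same comparisons, with sums of 1.02 to 2.10, 7.78 to 49.2 and 1.60 to 3.63 FPKM. Of 5 neutrophil markers, Csf3r, Cxcr2 and Retnlg were higher and Cxcr2 and Retnlg then lower, while Mpo and Ly6g did not pass in either comparison. The sums of the 5 overlapped, at 90.2 to 120 FPKM in Control, 34.9 to 177 FPKM in IgG Ab and 86.1 to 154 FPKM in anti-S100a9 Ab, and in Control they were almost all Ly6g (88.8 to 117 FPKM), whose log2 fold changes were -0.74 and 0.94. Without Ly6g, left out after its values were seen, the sums of the other 4 were 1.33 to 2.61, 8.78 to 81.7 and 2.95 to 4.20 FPKM. In IgG Ab most of this sum was Retnlg alone (5.38, 34.0 and 75.6 FPKM), and Mpo never exceeded 0.159 FPKM. None of 6 macrophage and monocyte markers and none of 5 lymphocyte markers passed in either comparison, and of 7 epithelial markers only Krt18 did, higher and then lower. Smooth muscle and enteric neuron markers had medians of the opposite sign. The median log2 fold change of 6 smooth muscle markers was -1.04 in IgG Ab against Control and 1.42 between the antibodies, where Myh11 was higher (2.01, adjusted p = 0.033), and their summed level was 1801 to 2857 FPKM in Control, 518 to 3251 FPKM in IgG Ab and 2246 to 4074 FPKM in anti-S100a9 Ab. For 5 enteric neuron markers the medians were -1.04 and 1.43, with Elavl4 (1.80, adjusted p = 0.030) and Nos1 (2.11, adjusted p = 0.027) higher between the antibodies and overlapping sums of 7.60 to 21.9, 9.87 to 27.5 and 13.6 to 18.3 FPKM. No marker of either list passed in IgG Ab against Control. Of 4 skeletal muscle markers 2 were tested, and Mylpf was lower between the antibodies (-1.33, adjusted p = 0.043), with Acta1 listed at 0 in all 9 samples. No other marker of these lists was at 0 throughout. The part of these cells in the S100a11, S100a6 and S100a4 values was not tested.

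S100a14 and S100a16 did not pass the test in any comparison. S100a14, a membrane-associated member of epithelia, was measured at 157, 152 and 203 FPKM in Control, 210, 186 and 259 FPKM in IgG Ab, and 177, 231 and 171 FPKM in anti-S100a9 Ab. Its ranges overlapped, with log2 fold changes of 0.35 (95% CI -0.10 to 0.80) for IgG Ab against Control and -0.18 (-0.63 to 0.27) between the antibodies. S100a16, a widely expressed member, was at 110, 108 and 152 FPKM, then 101, 141 and 177 FPKM, then 105, 129 and 93.7 FPKM in the same order of groups. The groups of S100a16 overlapped too, and its log2 fold changes were 0.16 (-0.37 to 0.70) and -0.34 (-0.87 to 0.20). The 4 adjusted p-values from limma ran from 0.27 to 0.68.

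S100a1 and S100a13, the head-to-head pair, kept similar levels in each sample. S100a1 binds ryanodine receptors and S100a13 takes part in the release of Fgf1. S100a1 was at 60.1, 66.2 and 97.2 FPKM in Control, 49.5, 57.4 and 73.1 FPKM in IgG Ab, and 53.7, 52.0 and 55.2 FPKM in anti-S100a9 Ab. S100a13 was at 64.9, 61.0 and 116 FPKM, then 35.6, 59.6 and 74.8 FPKM, then 53.5, 61.3 and 64.7 FPKM. The ratio of S100a13 to S100a1 within a sample lay between 0.719 and 1.20. The S100a1 levels under anti-S100a9 Ab were all below those of Control, but the log2 fold change of -0.44 (95% CI -0.91 to 0.02) had an adjusted p of 0.33 (limma). In the other comparisons the groups overlapped for both genes, with log2 fold changes against Control of -0.30 for S100a1 and -0.51 for S100a13 with IgG Ab (adjusted p = 0.36 and 0.30), and of -0.14 and 0.14 between the antibodies, where the signs turned under some settings. Ryr2, a partner of S100a1 that is expressed in muscle and neurons, was at 0.375 to 0.842 FPKM in Control, 0.032 to 0.23 FPKM in IgG Ab and 0.902 to 1.38 FPKM in anti-S100a9 Ab. It was lower in the first comparison (log2 fold change -1.50, adjusted p = 0.0498) and higher in the second (2.49, adjusted p = 0.0088). At these low levels the size depends on the pseudocount, and the first call lay just under the threshold. The muscle marker Myh11 (log2 fold changes -1.46 and 2.01) and the neuron markers Elavl4 (-1.13 and 1.80) and Nos1 (-1.04 and 2.11) had the same signs as Ryr2, and passed in the second comparison alone. The part of muscle and neurons in the Ryr2 values was not tested.

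S100b, the glial member, was the lowest of the 10 genes. Its levels were 0.79, 1.69 and 1.52 FPKM in Control, 0.25, 0.78 and 0.53 FPKM in IgG Ab, and 1.70, 1.28 and 0.99 FPKM in anti-S100a9 Ab. The IgG Ab samples lay below the other 6, by a narrow gap to Control replicate 1, with log2 fold changes of -1.24 (SE 0.41, adjusted p = 0.086, limma) against Control and 1.27 (SE 0.41, adjusted p = 0.057) for anti-S100a9 Ab against IgG Ab. Neither passed, and both passed without IgG Ab replicate 2 (adjusted p = 0.048 and 0.035). At these low levels the pseudocount sets the size, and with a pseudocount of 1 the log2 fold changes were -0.61 and 0.62. Of 5 enteric glia markers, Sox10 was higher with anti-S100a9 Ab than with IgG Ab (log2 fold change 1.63, adjusted p = 0.029) and none passed in IgG Ab against Control, where the median of the list was -0.86. Gfap and Gfra3 had the signs of S100b in both comparisons, whereas Ngfr (0.63 and -0.59) and Fabp7 (0.17 and -0.07) had the opposite signs. The sums of the 5 overlapped, at 5.23 to 8.14 FPKM in Control, 5.36 to 11.5 FPKM in IgG Ab and 6.37 to 7.99 FPKM in anti-S100a9 Ab. Adipocytes also express S100b, and Adipoq, Cfd and Plin1 were lower in IgG Ab than in Control, with a summed level of 5 adipocyte markers of 74.3 to 261 FPKM in Control, 9.70 to 45.1 FPKM in IgG Ab and 19.4 to 36.3 FPKM in anti-S100a9 Ab. The last was nearly all Fabp4 (19.2 to 35.1 FPKM). No adipocyte marker passed between the antibodies, where Adipoq (-1.06), Cfd (-0.56) and Plin1 (-0.36) had the sign opposite to S100b and Fabp4 (0.13) the same sign. The part of either cell type in the S100b values was not tested.

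S100g, or calbindin-D9k, the vitamin D dependent calcium carrier of absorptive cells, had the widest spread. It was at 5.63, 4.12 and 66.3 FPKM in Control, 13.3, 19.0 and 5.62 FPKM in IgG Ab, and 3.54, 3.68 and 3.77 FPKM in anti-S100a9 Ab. Control replicate 3 alone set the Control mean, and the anti-S100a9 Ab samples lay below those of both other groups. The log2 fold change of IgG Ab against Control was -0.05 (SE 0.92, adjusted p = 0.98, limma) and became 1.21 (adjusted p = 0.12) without Control replicate 3. Between the antibodies it was -1.59 (SE 0.92, adjusted p = 0.23), and it passed without Control replicate 3 (adjusted p = 0.027) and in a fit of the 2 antibody groups alone (0.044). Trpv6, the calcium channel through which absorptive cells take up calcium, was at 1.34, 0.203 and 0.127 FPKM in Control, 8.95, 8.88 and 3.71 FPKM in IgG Ab, and 2.13, 0.373 and 0.6 FPKM in anti-S100a9 Ab. Trpv6 was higher in IgG Ab than in Control (log2 fold change 3.87, adjusted p = 0.019) and lower with anti-S100a9 Ab than with IgG Ab (-2.90, adjusted p = 0.035). Vdr, the vitamin D receptor, moved in the opposite directions (-1.90, adjusted p = 0.035, and 1.87, adjusted p = 0.027), from 48.1, 70.5 and 55.4 FPKM in Control to 6.60, 29.6 and 18.1 FPKM in IgG Ab and 53.3, 71.8 and 45.5 FPKM in anti-S100a9 Ab.

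**Figure D3:**
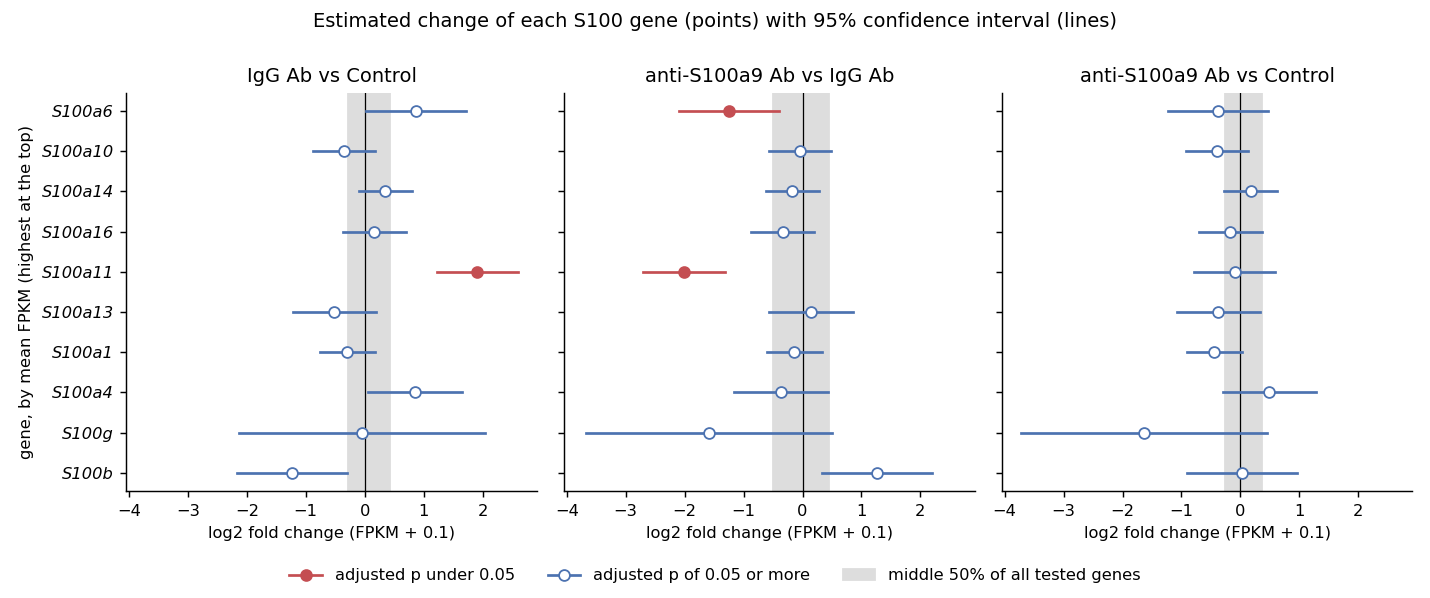
Log2 fold change of each S100 gene on the log2(FPKM + 0.1) scale (x axis), ordered by mean FPKM, in the 3 comparisons, with the 95% confidence interval from limma as a line and the middle 50% of all 15278 tested genes as a grey band. S100a11 (1.91 and -2.01) and S100a6 (-1.25 between the antibodies) are the filled points, and no gene is filled in the comparison of anti-S100a9 Ab with Control.

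Between anti-S100a9 Ab and Control, 0 of the 10 members passed the limma test at an adjusted p under 0.05, where 0.0131% of all genes did, and 0 of 10 had an unadjusted p under 0.05, where 16% of all genes did. S100a1 and S100g lay below Control in all 3 samples, so 2 of 10 members were wholly below, where 13.7% of all genes were, and 0 of 10 were wholly above, where 17.3% were. The log2 fold changes of the members ran from -1.64 (S100g, 95% CI -3.73 to 0.45) to 0.49 (S100a4, -0.30 to 1.28). Without Control replicate 3 the value of S100g was -0.39. For S100a11 and S100a6 the intervals were -0.79 to 0.59 and -1.23 to 0.47, and a change within them could not be told from none. The median of the 10 members was -0.27 in this comparison, beside 0.04 for all genes. In the other comparisons the median of the members was 0.06 for IgG Ab against Control, beside 0.09 for all genes, and -0.26 for anti-S100a9 Ab against IgG Ab, beside -0.06. Most members have short transcripts, and genes with short transcripts also sat lower in the anti-S100a9 Ab samples than in the IgG Ab samples (values below).

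Under the thresholds of the study's methods (2-fold and an unadjusted p under 0.05), S100b joined the called members. With IgG Ab against Control these thresholds passed S100a11 and S100b, 2 of 10 where 13.6% of all genes passed, and between the antibodies they passed S100a6, S100a11 and S100b, 3 of 10 where 16% of all genes passed. Against Control, anti-S100a9 Ab passed 0 of 10, where 3.15% of all genes passed.

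Counted by whether the 3 samples of 1 group lay wholly outside those of the other, S100a11 was above and S100b below Control in the IgG Ab samples, 1 of 10 each way, where 20.7% of all genes lay above and 10.2% below. Between the antibodies, S100a6, S100a11 and S100g lay wholly below in the anti-S100a9 Ab samples (3 of 10, where 28.5% of all genes did) and S100b wholly above (1 of 10, where 18.5% did).

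One Control sample ran high for most members. Control replicate 3 had the highest Control value in 9 of the 10 genes, against 38.82% of all genes, and the deviations of the 10 genes from their means over the 9 samples had a median of 0.48 on the log2 scale in that sample. Its median deviation was 0.12 for genes with transcripts under 1000 bases and -0.46 for those over 4000 bases, and 9 of the 10 members have a median transcript length under 1000 bases. IgG Ab replicate 3 had the highest value of its group in 7 of the 10 genes, against 27.32% of all genes, with -0.23 for genes over 4000 bases and 0.13 for those under 1000. With the trend over transcript length removed, S100a11 remained called (log2 fold changes 1.83 and -1.76), and S100a6 between the antibodies was at -1.01 (adjusted p = 0.078). The shift by length also differed between groups. For genes under 1000 bases the median deviations in Control were -0.08, -0.03 and 0.12. They were 0.18, 0.10 and 0.13 in IgG Ab and -0.13, -0.19 and -0.07 in anti-S100a9 Ab. For genes over 4000 bases they were 0.05, -0.05 and -0.46 in Control. In IgG Ab these were 0.10, -0.04 and -0.23, and in anti-S100a9 Ab 0.27, 0.19 and 0.21. What set these samples and groups apart was not tested.

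**Figure D4:**
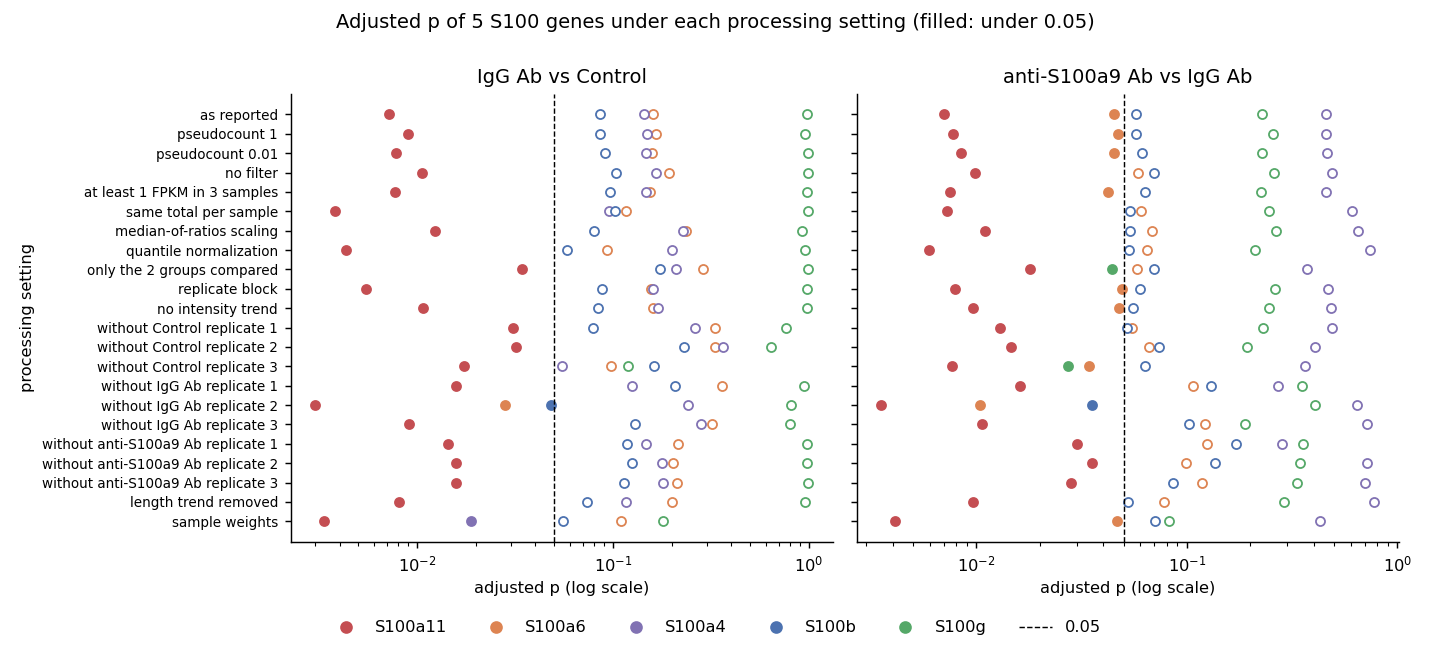
Adjusted p from limma (x axis, log scale) of S100a11, S100a6, S100a4, S100b and S100g as reported and under 21 alternative settings (y axis), for IgG Ab against Control and for anti-S100a9 Ab against IgG Ab, with filled symbols under 0.05 (dashed line). S100a11 is filled in every row of both panels, and S100a6 lies on both sides of the line in the right panel, from 0.010 to 0.12.

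Of the 11 partners and receptors of S100 proteins considered, 10 were tested. In IgG Ab against Control, Anxa2 and Trpv6 were higher and Ahnak and Ryr2 lower, and between the antibodies Ahnak, Anxa11 (log2 fold change 0.77, adjusted p = 0.047) and Ryr2 were higher and Anxa2 and Trpv6 lower with anti-S100a9 Ab. Anxa1, an annexin that S100a11 binds, was at 110, 116 and 109 FPKM in Control, 155, 134 and 198 FPKM in IgG Ab, and 133, 144 and 121 FPKM in anti-S100a9 Ab. Its log2 fold changes of 0.52 and -0.27 did not pass (adjusted p = 0.075 and 0.24, limma). Cacybp, which binds S100a6, Fgf1 and the receptor Ager, at 0.634 to 1.55 FPKM, did not pass in any comparison. Of the 7 vitamin D and calcium absorption genes 5 were tested, and besides Trpv6 and Vdr, Atp2b1 and Rxra were higher with anti-S100a9 Ab than with IgG Ab (0.95 and 0.49, adjusted p = 0.030 and 0.034). Against Control, no gene of either list passed with anti-S100a9 Ab.

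Of the 8 other S100 genes, 7 were in the tables, and all but the calprotectin pair were at low levels. S100a2, S100a3, S100a5 and S100z were listed at no more than 0.543 FPKM in any sample, and S100a7a stayed between 0.266 and 1.11 FPKM. S100a8 and S100a9, at 0.607 ± 0.345 and 0.602 ± 0.245 FPKM in Control (SD, n = 3), reached 139 ± 103 and 168 ± 102 FPKM in IgG Ab and 7.45 ± 5.15 and 9.16 ± 3.20 FPKM in anti-S100a9 Ab. The mean of S100a11 exceeded both in each group, at 57.2 ± 11.6, 229 ± 109 and 53.0 ± 5.56 FPKM, with ranges that overlapped those of S100a8 and S100a9 in IgG Ab. Within the chromosome 3 span from S100a1 to S100a10 the annotation has 61 other protein-coding genes, of which 15 were tested. Of these, 6 (Crnn, Prr9, Sprr1a, Sprr2b, Sprr2e and Sprr2h), which belong to the epidermal differentiation genes, were higher in IgG Ab than in Control, where 8.18% of all genes were. With anti-S100a9 Ab 7 of the 15 (Gm9774, Lor, Prr9, Sprr1a, Sprr2b, Sprr2e and Sprr2f) were lower than with IgG Ab, where 14.4% of all genes were. Of 13061 genes outside the family, those whose log2 levels followed S100a11 most closely over the 9 samples were Ccz1 (Pearson r = 0.987, Spearman rho = 0.983), Il1rn (0.987 and 0.867) and Fbxw9 (0.985 and 0.833). For S100a6 they were Anapc7 (0.986 and 0.817), Wbscr27 (0.978 and 0.933) and Zfp580 (0.971 and 0.917). These are descriptions over samples that share their groups and normalization.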

How the data were processed

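RNA of 9 mice was sequenced on the Solexa platform from colon samples with an RNA integrity of 7 or more, as the study describes. The submitters' processing notes name TopHat, Cufflinks, HTSeq, DESeq and the GRCm38 build, without versions. The authors deposited FPKM values for 21544 rows in a file for each mouse, and the unit was read from the values, which sum to between 308377 and 408811 per sample. Counts were not used here, so the authors' DESeq test was not repeated and no counting error was computed. Rows repeating a symbol (46) were summed, and genes that reached 0.1 FPKM in 3 or more samples were analyzed as log2(FPKM + 0.1) with limma 3.58.1 in R 4.3.3 (empirical Bayes with an intensity trend, 8.87 degrees of freedom, two-sided, Benjamini-Hochberg adjustment). The procedure was tested on simulated data in which genes varied independently, so shifts shared by many genes were not covered. Correlations between samples were 0.963 to 0.987 within groups and 0.930 to 0.987 between groups, and no 2 files held the same values. The labels call the 3 samples of a group biological replicates, and the precision comes from them. The 10 genes were named by a fixed list with the value of each sample, partner genes are named where they passed the test or bind a called member (Fgf1 and Ager in addition), markers are given by list with those that passed, and the members and lists were chosen with earlier results of these data known. One of the 6 enteric glia markers listed is not reported here, for a reason unrelated to its values. Alternatives covered pseudocounts, filters, scaling, the samples in the fit, the replicate block, the intensity trend and leaving out each sample. Removal of a transcript length trend and sample weights were added after seeing the data. Positions are from GENCODE M21 and promoter sequences from RefSeq. Python 3.11.15, pandas 2.3.3, numpy 2.4.6 and matplotlib 3.10.9 were used.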

Additional observations from a re-analysis of the deposited data

How the results depend on the processing

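The 10 genes were compared in 3 comparisons under 12 other settings and 9 fits that each left out 1 sample. Both calls on S100a11 held in all of them. Calls on single partner and marker genes were not followed over these settings. Some lay near the threshold, such as Ryr2 and Ahnak in IgG Ab against Control and Anxa11 between the antibodies. Members with an adjusted p under 0.05 numbered 1 in IgG Ab against Control and 2 with sample weights, 2 in anti-S100a9 Ab against IgG Ab and 1 each without a filter, with the same total per sample, median-of-ratios scaling, quantile normalization and the length trend removed, and 0 in anti-S100a9 Ab against Control and 1 with sample weights. Leaving out samples gave 1 to 3, 1 to 3 and 0 to 0 members. By 2-fold and unadjusted p, members numbered 2, 3 and 0. A pseudocount of 1 gave 1 in the first comparison and sample weights 1 in the third, and leaving out samples gave 1 to 5, 2 to 4 and 0 to 1.

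Over all genes, 1710, 3219 and 2 had an adjusted p under 0.05. The first became 603 in a fit of the 2 groups and 3247 with sample weights, the second 2089 with the same total per sample, and the third 4 with a pseudocount of 0.01, 1 without a filter, 1 without an intensity trend, 0 in a fit of the 2 groups and 2584 with sample weights, while leaving out samples gave 591 to 2167, 516 to 4114 and 0 to 5. By 2-fold and unadjusted p the counts were 2081, 2447 and 481. A pseudocount of 1 gave 1202, 1342 and 162, the same total per sample gave 758 and sample weights 971 in the third, and leaving out samples gave 1558 to 2539, 1928 to 3091 and 254 to 806. The adjusted split of 1250 genes higher and 460 lower in the first comparison became 947 and 631 with quantile normalization, and that of 1026 and 2193 in the second became 986 and 1103 with the same total per sample, 1327 and 1505 with median-of-ratios scaling, and 1389 and 1706 with quantile normalization. Scaling to the same total moved the median log2 fold change of all genes from 0.04 to 0.23 in the third comparison and from -0.06 to 0.05 in the second, and the members' values moved with it.

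Uncalled members near 0 turned in sign. In IgG Ab against Control, S100g (-0.046) became 0.039 with the same total per sample and 1.32 with sample weights, and leaving out samples took it from -0.78 to 1.21 and S100a16 (0.16) from -0.025 to 0.38. Between the antibodies, S100a1 (-0.14) became 0.082 with quantile normalization and 0.092 with the length trend removed, S100a10 (-0.043) became 0.072 with the same total per sample, 0.082 with median-of-ratios scaling, 0.16 with quantile normalization and 0.20 with the length trend removed, S100a13 (0.14) became -0.050 with sample weights, and S100a14 (-0.18) became 0.063 with the length trend removed. Leaving out samples took S100a1 from -0.27 to 0.0088, S100a10 from -0.17 to 0.092 and S100a13 from -0.16 to 0.37. In anti-S100a9 Ab against Control, S100a11 (-0.096) became 0.10 with the same total per sample, 0.062 with quantile normalization and 0.070 with the length trend removed, S100a16 (-0.17) became 0.028 with the same total per sample and 0.059 with quantile normalization, and S100b (0.027) became -0.12 with quantile normalization and -0.12 with sample weights. Leaving out samples took S100a11 from -0.24 to 0.053 and S100b from -0.28 to 0.22. The cause of these turns was not tested.

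The replicate numbers were not taken to pair the mice. Deviations of samples with the same number correlated between -0.19 and 0.25, above 0.1 in 5 of 9 pairs. Those of samples with different numbers correlated between -0.27 and 0.19. These overlapping ranges do not decide whether the numbers pair the mice. With the replicate number as a block, the same 1, 2 and 0 members passed, S100a6 between the antibodies at an adjusted p of 0.049. With 3 mice per group the intervals of uncalled members are wide, and without counts the depth behind S100b and the other low genes is unknown.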
